A study of Mus musculus with 4 samples.

Results

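The genes described here are the cyclins, the cyclin-dependent kinases (CDKs), the CDK inhibitors, and the E2F, DP and pocket proteins that the authors' table of bone marrow and pleural eosinophils lists. They were chosen by name, from gene symbols that begin with Ccn, Cdk, Cdkn, Cdkl, E2f or Tfdp followed by the family's letter or number (Ccnc, Ccnf and Ccnh included), together with Rb1, Rbl1, Rbl2 and Wee1. Of the 5807 listed genes, 32 carried such a name. RefSeq holds 75 protein-coding mouse genes of these names, and the other 43, among them Ccnd1, E2f1, E2f4 and Rb1, were not in the list, which gives them no direction. The table lists genes that the authors' own comparison of the tissues had selected, so being listed is no result, and a difference between the tissues is given below as a description with no test.

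The eosinophils came from wild-type (WT) mice that had received cells of the Lewis lung carcinoma line LLC in the pleural cavity. They were sorted from bone marrow (2 libraries) and from pleural lavage fluid (2 libraries). A figure legend of the paper names day 2 for this sampling. By the sample titles and the study's methods, both tissues came from tumor-injected animals and no untreated mice were sequenced. The paper's Results nevertheless call the bone marrow eosinophils naïve. The bone marrow cells were enriched with beads against the antigen that Adgre1 encodes, and sorted as CD45+ SiglecF+ cells of high side scatter. The pleural cells were enriched on CD45, and their gate required CD11b and the Adgre1 antigen and left out CD11c+ and high Gr1 cells, which the bone marrow gate did not do. The study's methods describe its mice as young adults matched by sex and weight. Whether animals were pooled for a library is not given in the sources used here.

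For each gene the table gives the authors' mean reads over the libraries of a tissue. No value per library was analysed here, so no spread between libraries can be given and it is not known whether both libraries of a tissue showed a difference. Mean reads of the listed genes summed to 15947438 in pleural and 11762543 in bone marrow eosinophils, which is the total of the list and not the depth of a library. Levels were therefore scaled to reads per 1000000 reads of the listed genes, and a log2 ratio is always that of the scaled level in pleural over bone marrow eosinophils, with means under 3 reads set to 3. In bulk RNA, fewer cells that express a gene and less of its RNA per cell cannot be told apart.

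Cyclins are the regulatory subunits that switch on CDKs. D cyclins with Cdk4 and Cdk6 act in G1, where they phosphorylate the pocket proteins and free E2F, a transcription factor that binds DNA with a DP partner. E cyclins with Cdk2 then start S phase, and A and B cyclins with Cdk1 carry cells through G2 and mitosis. Inhibitors of the CIP/KIP family, such as p21 and p27, bind cyclin-CDK complexes. Eosinophils divide as precursors in the bone marrow and stop dividing as they mature.

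Many genes of this machinery are controlled at their promoters by E2F sites, by the CHR (cell cycle genes homology region) and by CCAAT boxes. Promoter windows of 300 bases (250 before and 50 after a transcription start, RefSeq, GRCm38.p6) were read for 28 of the 32 genes. Ccna2, Ccnd2, Ccne2 and Wee1 had none in the table used. The 4 genes with motif matches shown first stood lower in pleural eosinophils, and Cdkn1a, shown last, had the highest log2 ratio of all the genes described. Each line runs from 180 bases before the start to 15 bases from it, 5′ to 3′ in the direction of the gene, and capitals mark E2F, CHR and CCAAT words on either strand.
Ccnb2, chr9:70421540-70421734, minus strand: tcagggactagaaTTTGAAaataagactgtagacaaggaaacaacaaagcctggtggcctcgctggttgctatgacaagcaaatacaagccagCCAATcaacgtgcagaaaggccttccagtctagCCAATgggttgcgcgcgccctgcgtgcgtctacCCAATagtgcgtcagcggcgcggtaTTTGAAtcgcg
Cdk1, chr10:69352898-69353092, minus strand: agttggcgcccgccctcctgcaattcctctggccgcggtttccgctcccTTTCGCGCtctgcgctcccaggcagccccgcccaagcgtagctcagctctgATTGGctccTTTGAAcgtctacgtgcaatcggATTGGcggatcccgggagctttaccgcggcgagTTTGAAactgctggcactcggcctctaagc
Ccnf, chr17:24251395-24251589, minus strand: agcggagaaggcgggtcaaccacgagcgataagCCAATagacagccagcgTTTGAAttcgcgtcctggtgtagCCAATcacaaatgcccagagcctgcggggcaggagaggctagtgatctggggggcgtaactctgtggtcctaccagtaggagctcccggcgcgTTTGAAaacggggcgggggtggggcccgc
Tfdp1, chr8:13338571-13338765, plus strand: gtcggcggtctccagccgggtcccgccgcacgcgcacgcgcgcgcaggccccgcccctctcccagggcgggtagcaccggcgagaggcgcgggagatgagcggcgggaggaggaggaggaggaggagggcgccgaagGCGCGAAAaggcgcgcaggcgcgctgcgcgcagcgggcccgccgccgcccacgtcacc
Cdkn1a, chr17:29090799-29090993, plus strand: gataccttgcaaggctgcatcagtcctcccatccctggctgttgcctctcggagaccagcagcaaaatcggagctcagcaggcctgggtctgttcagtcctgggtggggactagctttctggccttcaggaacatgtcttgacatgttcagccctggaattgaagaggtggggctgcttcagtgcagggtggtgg

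The words searched on both strands were TTTCCCGC, TTTGGCGC, TTTCGCGC and TTTGCCGC for E2F, TTTGAA and TTCGAA for the CHR, and CCAAT. In the Ccnb2 window, 3 CCAAT words lay 33 and 33 bases apart and were followed by a CHR word 4 bases after the start. Cdk1 held an E2F word 131 bases before the start, and CHR words 71 and 15 bases before it. Ccnf had CHR words 130 and 14 bases before the start, and Tfdp1 had an E2F word on the opposite strand, 43 bases before it. No such word was found in either of the windows of Cdkn1a, which says only that these letters are absent there.

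An E2F word was present in 7 of the 28 genes with a window (25.0%), in comparison to 2.26% of all 32851 windows and 2.61% of the 27025 genes they belong to. These were Cdk1, Cdk2, E2f2, E2f3, E2f7, Rbl1 and Tfdp1, and all 7 had a lower level in pleural eosinophils. A CHR word was present in 8 genes (28.6%), against 19.2% of all windows and 21.7% of genes. Among the 18 genes that were lower, 11 had an E2F or a CHR word (61.1%). Among the 10 that were higher, 1 had one, Cdk5rap1. Of all listed genes with a window, an E2F or CHR word was found in 28.5% of those at least 2-fold lower in pleural eosinophils and in 17.8% of those at least 2-fold higher. CCAAT divided the genes less, with 66.7% of the lower and 60.0% of the higher genes. A word match is not a bound site, and none of these shares was tested.

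**Figure D1:**
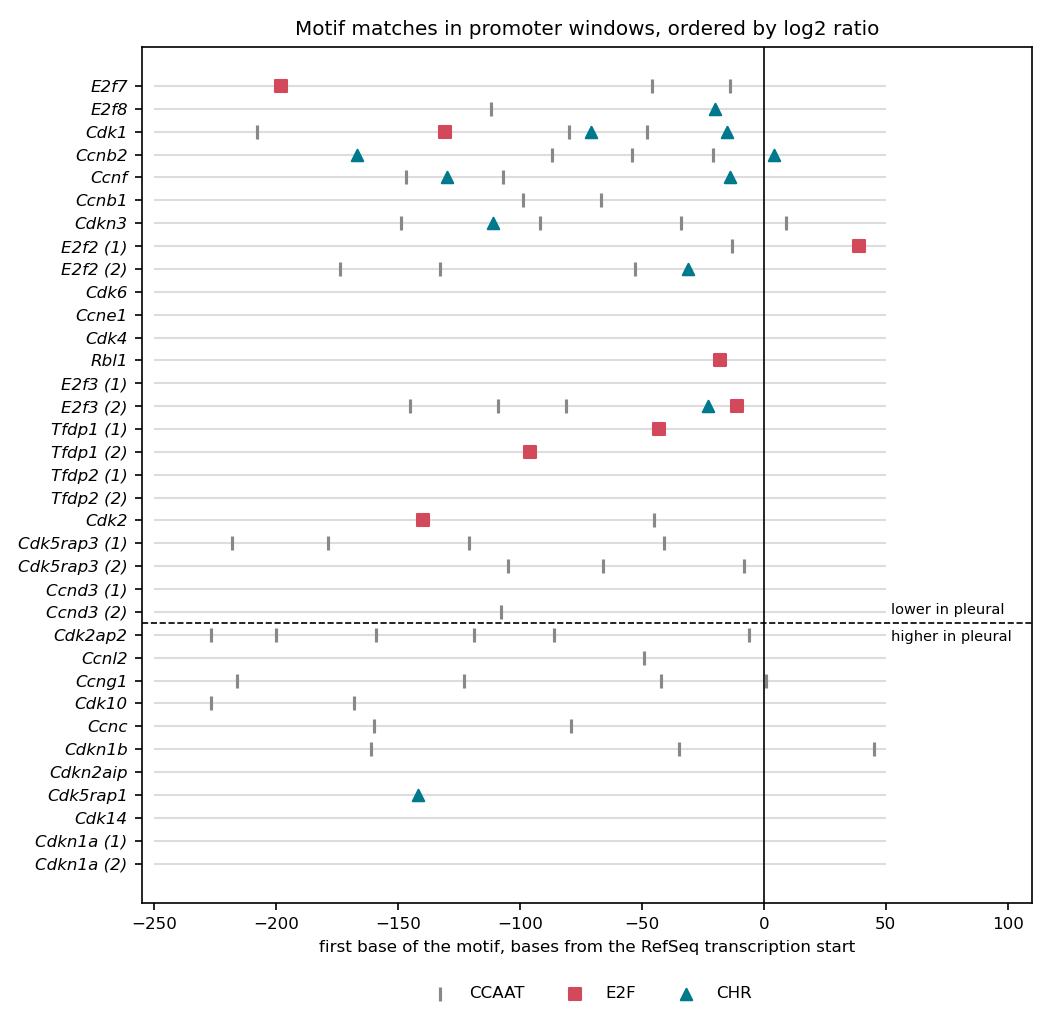
Positions of E2F (squares), CHR (triangles) and CCAAT (bars) words in the promoter windows of 28 genes, in bases from the RefSeq start, with genes ordered from the lowest to the highest log2 ratio; numbers in brackets tell windows of one gene apart. All 7 genes with an E2F word lie above the dashed line, among the genes with a lower level in pleural eosinophils.

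Of the 32 genes, 20 were at least 2-fold lower in pleural eosinophils and 4 at least 2-fold higher, while 8 lay within 2-fold. The background is high, since 50.5% of all listed genes were at least 2-fold lower and 16.0% at least 2-fold higher, and 41.5% of the listed genes with at least 50 mean reads in the tissue with more reads were at least 2-fold lower. The share of lower genes was 62.5%, so the count alone says little of these genes. Without scaling of the mean reads, 18 genes were lower and 9 higher by that measure. The size of the difference varied with the role of the gene. A level at least 4-fold lower was found for 15 of the 32, in comparison to 36.7% of all listed genes. The median log2 ratio was -1.78 for the 32 genes and -1.02 for all listed genes, while listed genes with at least 50 mean reads in the tissue with more reads had a median of 0.22. All 19 A, B, D, E and F cyclins, cell cycle CDKs, and E2F, DP and pocket genes were lower, and 11 of the other 13 genes were higher, or 10 with scaling by the median ratio over abundant genes, where Cdk2ap2 was at -0.02. As scaled here, 2468 of all 5807 listed genes were higher and 3339 lower. The paper's own comparison counted fewer genes as higher and more as lower. Genes with small positive ratios here may therefore not count as higher in that comparison.

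**Figure D2:**
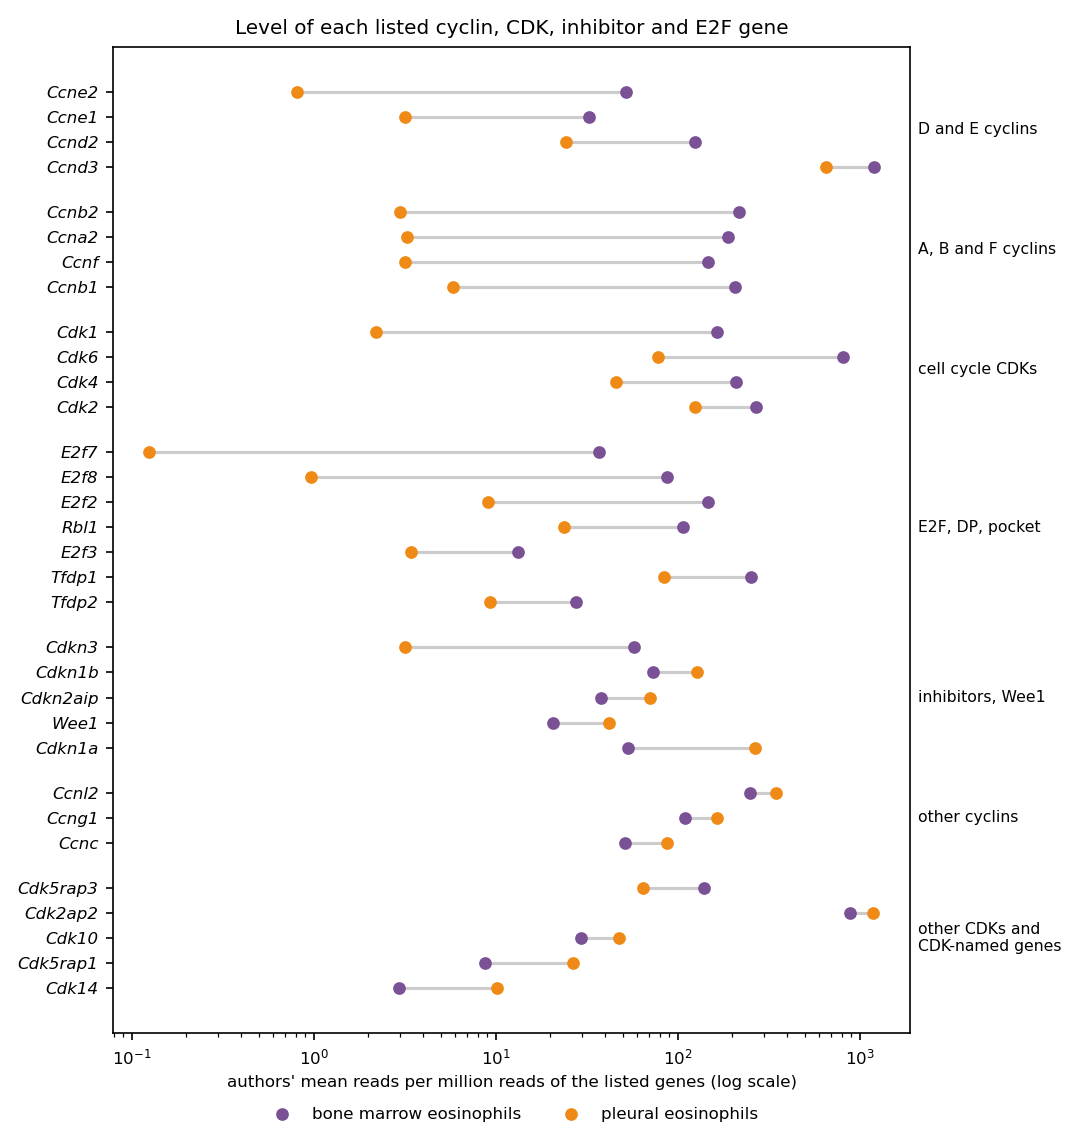
Authors' mean reads per 1000000 reads of the listed genes for each of the 32 genes, on a log axis, in bone marrow (purple) and pleural eosinophils (orange), grouped by role. The A, B and F cyclins stand between 146 and 217 in bone marrow and between 2.98 and 5.80 in pleural eosinophils.

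The cyclins of S phase, G2 and mitosis and their kinase Cdk1 showed some of the lowest ratios. Ccnb2, a B cyclin of the mitotic Cdk1 complex (chromosome 9, 70407692 to 70421547 of GRCm38, minus strand), had 47.5 mean reads in pleural and 2549 in bone marrow eosinophils. Its log2 ratio was -6.18, a level 72.8-fold lower, and 2.01% of all listed genes had a lower ratio. Ccnb1, the other B cyclin (chromosome 13, 100778650 to 100786570), had 92.5 mean reads in pleural and 2436 in bone marrow eosinophils. Its log2 ratio of -5.16 was the least negative of this group. Ccna2, the A cyclin of S phase and G2, had 51.9 and 2212 mean reads and a log2 ratio of -5.85. Both B cyclins were thus near the bottom of the list along with Ccna2. Ccnf, an F-box protein that marks substrates for degradation and has not been found to switch on a CDK, had 51 mean reads in pleural and 1721 in bone marrow eosinophils, with a log2 ratio of -5.52. Cdk1, the kinase of mitosis (chromosome 10, 69335146 to 69352938), had 35 and 1925 mean reads. Its log2 ratio of -6.22 was the lowest of the 4 cell cycle CDKs. The pleural means of these 5 genes were low but not at 0.

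**Figure D3:**
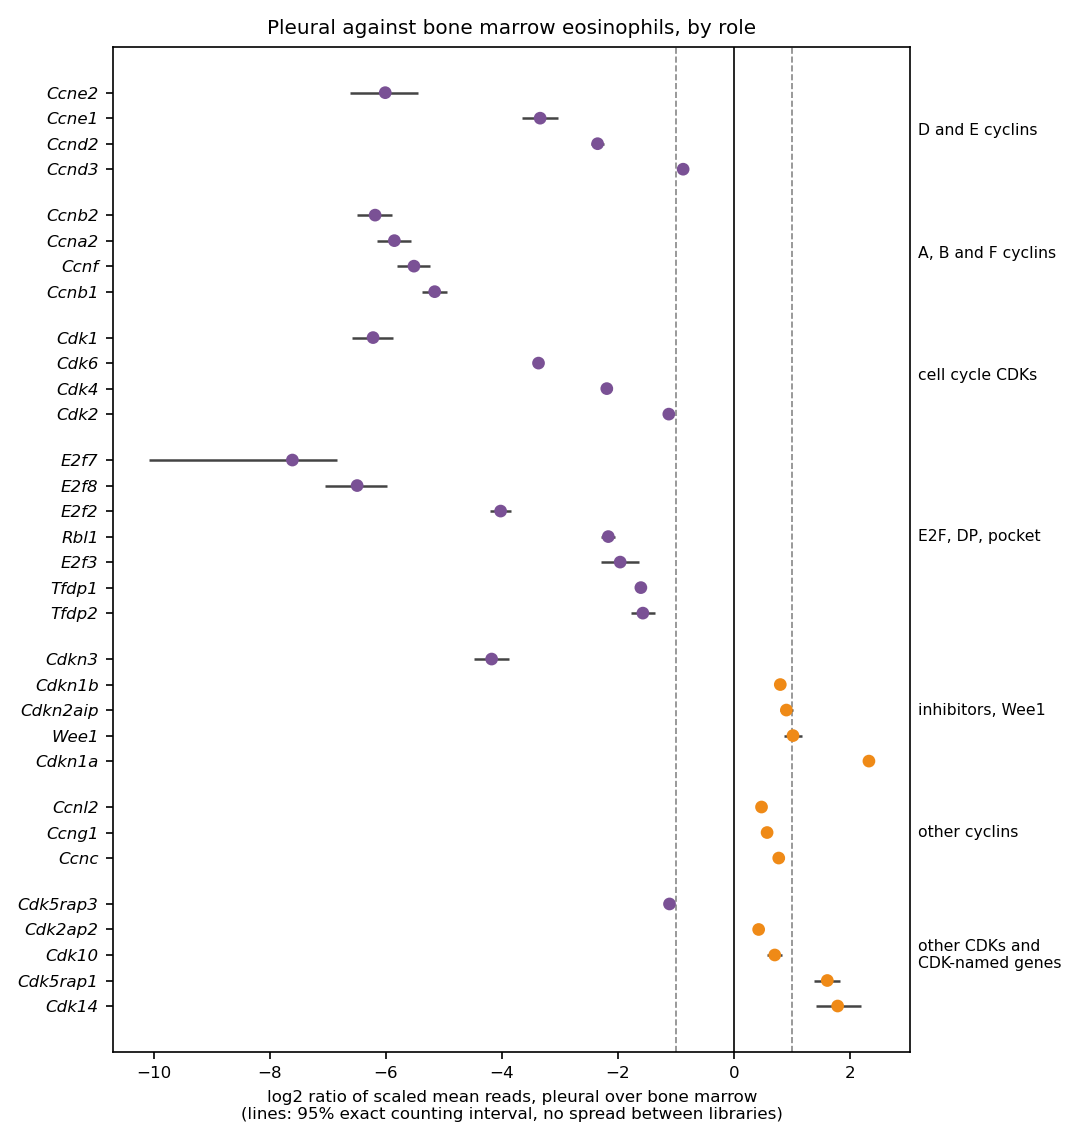
Log2 ratio of scaled mean reads, pleural over bone marrow eosinophils, for the 32 genes by role, with horizontal lines for the 95% exact counting interval, which holds no spread between libraries, and dashed lines at 2-fold. The ratios run from -7.61 for E2f7 to 2.33 for Cdkn1a, and the only lower genes among the last 3 groups are Cdkn3 and Cdk5rap3.

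The G1 cyclins were lower too, but to very different degrees. Ccne2, an E cyclin that activates Cdk2, had 12.9 mean reads in pleural and 612 in bone marrow eosinophils. Its log2 ratio was -6.01, with a 95% exact counting interval of -6.62 to -5.44, which covers counting error only. Ccne1, the other E cyclin, had 51 and 381 mean reads and a log2 ratio of -3.34. The E cyclins thus differed from each other by more than their counting error. That error does not cover the fractional reads of Ccne2 or the overlap of its exons with another gene. Ccnd2, a D cyclin, had 388.5 mean reads in pleural and 1461 in bone marrow eosinophils, with a log2 ratio of -2.35. Ccnd3, a D cyclin that is prominent in blood cells (chromosome 17, 47505051 to 47599691), had 10414 and 14093 mean reads. Its log2 ratio of -0.88 left it within 2-fold, and it had the most reads of the cyclins in both tissues. The scalings tried put the ratio of Ccnd3 between -0.44 (unscaled) and -1.32 (median ratio over abundant genes). It was past 2-fold lower under the latter and, at -1.21, when eosinophil, precursor and neutrophil markers were left out of the total.

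Among the G1 and S phase kinases the order was Cdk6, Cdk4 and Cdk2, from the lowest ratio. Cdk6, a partner of D cyclins that is also known from blood progenitors (chromosome 5, 3341485 to 3531008), had 1249 mean reads in pleural and 9510 in bone marrow eosinophils, a log2 ratio of -3.37. Cdk4, the other partner of D cyclins, had 727.5 and 2451 mean reads and a log2 ratio of -2.19. Cdk2, the partner of E and A cyclins, had 1976 mean reads in pleural and 3172 in bone marrow eosinophils. Its log2 ratio was -1.12, and without scaling it lay within 2-fold at -0.68.

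Shares within a tissue do not depend on how the tissues are scaled to each other. Per kilobase of principal transcript, Ccna2, Ccnb1 and Ccnb2 together made up 31.7% of the reads of the listed A, B, D and E cyclins in bone marrow and 1.68% in pleural eosinophils. Ccnd3 made up 62.4% and 96.5%. Among these 7 listed cyclins, those of pleural eosinophils were thus mostly Ccnd3. Of the reads per kilobase of the 4 cell cycle CDKs, Cdk1 took 11.4% in bone marrow and 0.591% in pleural eosinophils, and Cdk6 took 21.3% and 8.01%. Cdk2 took 36.5% in bone marrow and 65.2% in pleural eosinophils. Cdk4 kept a similar share, 30.8% and 26.2%. The shares move with the transcript length taken. Counted as reads without division by length, Cdk2 had 18.6% in bone marrow and 49.6% in pleural eosinophils, and Cdk6 had 55.8% and 31.3%. Cdk4 had 14.4% and 18.2%, so the direction of its small difference depends on the length taken.

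**Figure D4:**
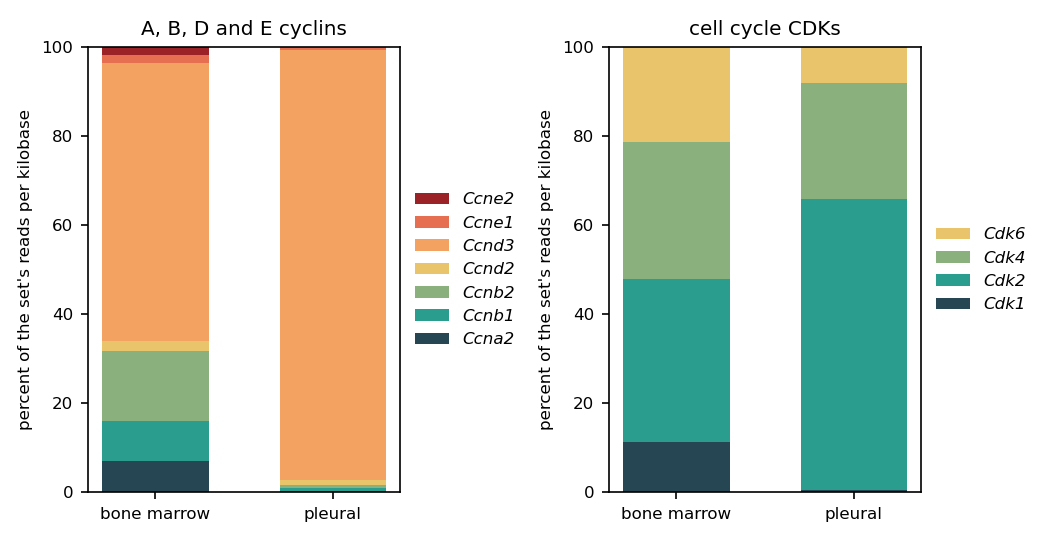
Share of each gene in the reads per kilobase of its set, in percent, for 7 A, B, D and E cyclins (left) and 4 cell cycle CDKs (right), in bone marrow and pleural eosinophils. Ccnd3 fills 62.4% of the cyclin bar in bone marrow and 96.5% in pleural eosinophils, and Cdk2 goes from 36.5% to 65.2% of the CDK bar.

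All 7 listed E2F, DP and pocket genes were at least 2-fold lower in pleural eosinophils, against 50.5% of all listed genes. The atypical E2Fs had the lowest ratios. E2f7, a repressor that binds DNA without a DP partner (chromosome 10, 110745439 to 110787384), had 2 mean reads in pleural and 432.5 in bone marrow eosinophils. With the pleural mean set to 3 reads its log2 ratio was -7.61, and from the reads as they were the 95% exact counting interval ran from -10.07 to -6.83. E2f8, the other atypical repressor, had 15.5 and 1031 mean reads and a log2 ratio of -6.49 (95% exact counting interval -7.06 to -5.98). These were the lowest ratios of all 32 genes, though with means set to at least 10 reads E2f7 stood at -5.87, above E2f8, Cdk1, Ccnb2 and Ccne2.

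The activating E2Fs followed. E2f2 had 144.5 mean reads in pleural and 1731 in bone marrow eosinophils, a log2 ratio of -4.02. E2f3 had few reads in both tissues, 54.5 and 156.5, with a log2 ratio of -1.96. Rbl1, which encodes the pocket protein p107, had 380 mean reads in pleural and 1258 in bone marrow eosinophils and a log2 ratio of -2.17. The DP partners were closest to each other. Tfdp1, the main DP partner, had 1334.5 and 2992.5 mean reads with a log2 ratio of -1.60, and Tfdp2 had 148 and 324 with -1.57.

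Of the 11 inhibitors and related genes, 5 were listed. Cdkn1c, Cdkn2a, Cdkn2b, Cdkn2c, Cdkn2d and Cdkn2aipnl were not. Of the 5, 4 were higher in pleural eosinophils, 2 of them at least 2-fold. Over all 5807 listed genes, 2468 were higher, and 16.0% were at least 2-fold higher. Cdkn1a, which encodes p21 and is a textbook target of p53 (chromosome 17, 29090976 to 29100727), had 4254.5 mean reads in pleural and 625.5 in bone marrow eosinophils. Its log2 ratio of 2.33, a level 5.02-fold higher, was the highest of the 32 genes, and 96.0% of all listed genes had a lower ratio. Cdkn1b, which encodes p27, had 2028.5 and 860 mean reads and a log2 ratio of 0.80, within 2-fold (1.24 unscaled). Wee1, the kinase that holds Cdk1 inactive by phosphorylation, had 668.5 mean reads in pleural and 243.5 in bone marrow eosinophils. Its log2 ratio of 1.02 lay just past 2-fold, and under the other scalings it ranged from 0.57 to 1.46. Cdkn2aip, whose product binds the tumor suppressor ARF and does not inhibit a CDK itself, had 1125 and 443.5 mean reads and a log2 ratio of 0.90 (1.34 unscaled). The exception was Cdkn3, a phosphatase that acts on Cdk2, with 50.5 mean reads in pleural and 673.5 in bone marrow eosinophils and a log2 ratio of -4.18.

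Set against Cdk1 within a tissue, Cdkn1a and Wee1 were above it in pleural and below it in bone marrow eosinophils. Per kilobase, Cdkn1a had 256-fold the reads of Cdk1 in pleural eosinophils, whereas in bone marrow eosinophils Cdk1 had 1.46-fold those of Cdkn1a. The ratio of Cdkn1a to Cdk1 was 374-fold higher in pleural eosinophils, a value in which neither length nor depth enters. Wee1 had 24.4-fold the reads per kilobase of Cdk1 in pleural eosinophils, and in bone marrow eosinophils Cdk1 had 6.18-fold those of Wee1. Cdkn1b stayed under Cdk2 in both tissues, at 0.505 of its reads per kilobase in pleural and 0.133 in bone marrow eosinophils. By reads per kilobase Cdkn1a held rank 4 of the 32 genes in pleural and rank 17 in bone marrow eosinophils, and Ccnb2 rank 22 and rank 3.

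The 3 listed cyclins with roles outside the division cycle were higher, within 2-fold as scaled here. Ccnl2, a cyclin of splicing and transcription, had 5567.5 mean reads in pleural and 2953.5 in bone marrow eosinophils and a log2 ratio of 0.48. Ccng1, another textbook p53 target, had 2608 and 1294.5 mean reads and a log2 ratio of 0.57. Ccnc, the cyclin of the Mediator kinase module, had 1396 and 603 mean reads and a log2 ratio of 0.77. With scaling by the median ratio over abundant genes (1000 mean reads or more in each tissue), these ratios were smaller, down to 0.03 for Ccnl2. Unscaled, Ccnc at 1.21 and Ccng1 at 1.01 were past 2-fold.

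The remaining 5 genes bear the name of a CDK, and few are cell cycle kinases. Cdk14, a kinase of Wnt signaling, had the lowest bone marrow mean of the 32 genes, with 161.5 mean reads in pleural and 34.5 in bone marrow eosinophils and a log2 ratio of 1.79. Cdk5rap1, an enzyme that modifies mitochondrial tRNA, had 426 and 103 mean reads and a log2 ratio of 1.61. Cdk10, the kinase partner of cyclin M, had 764 and 346 mean reads and a log2 ratio of 0.70 (1.14 unscaled). Cdk5rap3, a component of the protein ufmylation machinery, was lower, with 1031 mean reads in pleural and 1642 in bone marrow eosinophils and a log2 ratio of -1.11. Unscaled it was -0.67, within 2-fold. Cdk2ap2, a binding partner of Cdk2, had the most reads of all in pleural eosinophils, 18959 against 10408, and its log2 ratio of 0.43 was -0.02 under the median scaling.

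The genes that work with the cyclins and CDKs were read from 5 lists. These lists were written with earlier results of these data known, so their counts are a description and give no independent support. Of 63 genes, 51 were listed, of which 46 were at least 2-fold lower in pleural eosinophils, 0 at least 2-fold higher, and 5 within 2-fold. Over all listed genes these shares were 50.5% lower and 16.0% higher, and 41.5% lower among those with at least 50 mean reads in the tissue with more reads. The median log2 ratio of the 51 genes was -3.87. All 30 genes on the list of targets of E2F and of MuvB, a complex that binds the CHR, were listed and all 30 were at least 2-fold lower, with log2 ratios from -7.37 to -1.43. The lowest were the spindle checkpoint kinases Ttk (2 and 366.5 mean reads in pleural and bone marrow eosinophils), Bub1 (8.5 and 729.5) and Bub1b (19 and 1455).

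All 6 CDK partners and phosphatases were at least 2-fold lower, against 50.5% of all listed genes. Cdc25c, a phosphatase that activates Cdk1, had 0 mean reads in pleural and 192.5 in bone marrow eosinophils. Taking 3 mean reads as the floor, it was at least 87.0-fold lower. Cks1b, a small CDK subunit, had 79 and 2827.5 mean reads and a log2 ratio of -5.60, and Cdc25a, another phosphatase, had 53 and 529.5 and a log2 ratio of -3.76. Foxm1 and Mybl2, transcription factors of G2 and S phase genes and the only 2 of 7 listed in their group, had log2 ratios of -5.09 and -3.36. Of the regulators upstream of G1 CDKs, 4 of 8 were listed. Chek1 and Myc had log2 ratios of -5.77 and -3.87. Chek2 had -1.01, just past 2-fold. Mdm2, which targets p53 for degradation and is itself a p53 target, had 0.42. Both Chek2 and Mdm2 had divided reads.

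Of 9 listed genes of the degradation machinery, 5 were at least 2-fold lower and 4 within 2-fold, a share of lower genes near the 50.5% of all listed genes. Ube2c and Cdc20, an enzyme and an activator of the anaphase-promoting complex, had log2 ratios of -6.04 and -5.73, and Skp2, which targets p27, had 20 mean reads in pleural and 295 in bone marrow eosinophils with -4.32. Of the core subunits of that complex, Anapc2 had 6854 and 2688 mean reads and a log2 ratio of 0.91, whereas Cdc27 had 320 and 450.5 and -0.93. The ubiquitin ligase scaffold Cul1 had 0.79, and Fbxw7, which targets cyclin E, had 0.72.

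**Figure D5:**
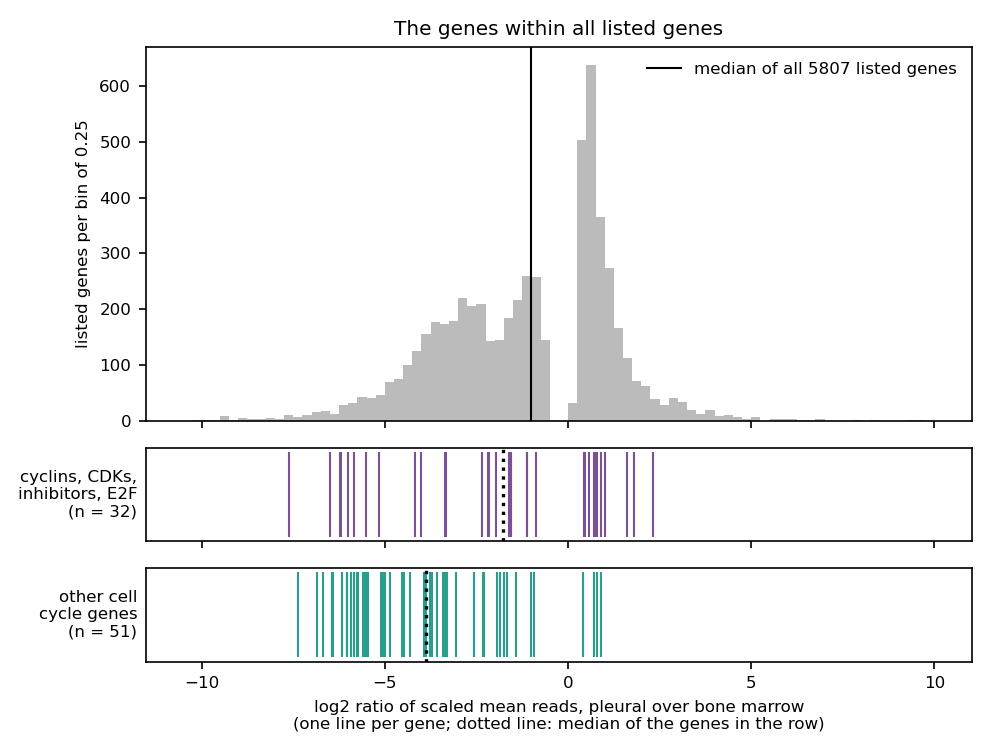
Distribution of the log2 ratio over all 5807 listed genes (top, bins of 0.25), with one line per gene for the 32 cyclins, CDKs, inhibitors and E2F genes (middle) and for the 51 other cell cycle genes (bottom). The list holds selected genes only. Few lie just below 0, since 3339 listed genes were lower and 3315 at least 1.5-fold lower, while 1942 lay within 2-fold. The median lies at -1.02 for all listed genes, -1.78 for the 32 and -3.87 for the 51.

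Markers of other cells differed between the tissues as well. High purity of the sorted cells is reported in the study's methods, along with Wright-Giemsa staining of the purified eosinophils. Over all listed genes, 50.5% were at least 2-fold lower and 16.0% at least 2-fold higher. Of 19 markers of granulocyte precursors and neutrophils, 18 were listed and all 18 were at least 2-fold lower in pleural eosinophils. They took 11.8% of the reads of the listed genes in bone marrow and 0.232% in pleural eosinophils, led by Ngp, S100a8 and Mpo with 263228, 229058 and 196096 mean reads in bone marrow eosinophils. Basophil and mast cell markers (6 of 7 listed) took 0.0968% and 0.00109%, and T and NK cell markers (3 of 9) 0.0903% and 0.000997%. Erythroid markers (4 of 7) took 0.0123% and 0.00116%. Monocyte and macrophage markers (6 of 11) took 0.340% in bone marrow and 0.645% in pleural eosinophils, and its genes went both ways. Adgre1, which encodes an antigen used in the sort, had 73916.5 of the 102870 pleural reads of the list against 11406 mean reads in bone marrow, while Ly6c2 (log2 ratio -5.62, divided reads) and Mrc1 (-1.27) were lower in pleural eosinophils. B cell markers (2 of 7) took 0.00125% and 0.00233%, and tumor or epithelial markers (3 of 5) 0.00613% and 0.0123%. Of these, Ms4a1 (log2 ratio 1.34) and Krt18 (1.45) were higher, and Vpreb1 (-3.18), Cdh1 (-4.96) and Sftpc (-1.91) were lower. Of the eosinophil markers 9 of 11 were listed. They took 9.55% of the reads of the listed genes in bone marrow and 0.766% in pleural eosinophils. Of the 9, 7 were at least 2-fold lower in pleural eosinophils and 2 at least 2-fold higher. Siglecf and Ccr3 had 21371 and 67556.5 mean reads in pleural eosinophils, both at least 2-fold above bone marrow, and the granule genes Epx and Prg2 had 341.5 and 1482 mean reads in pleural against 139062 and 555404 in bone marrow eosinophils. The part of these other cells or of the gates in the differences above was not tested.

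Reads of 5 of the 32 genes, Ccna2, Ccnc, Ccnd3, Ccne2 and Cdk6, were fractional beyond what a mean of 2 whole counts gives. RSEM writes such values where it splits a read among sequences that resemble each other, so these means are uncertain. In GENCODE, exons of 15 of the 32 overlap those of another gene, and reads in such stretches could belong to either. Among the 17 without an overlap, Ccnb2, Ccnb1, Cdk1, E2f2, Cdkn1b and Wee1 included, 10 were at least 2-fold lower and 3 at least 2-fold higher. Over all listed genes these shares were 50.5% and 16.0%, so the counts alone say little of these 17 genes.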

How the data were processed

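RNA of sorted eosinophils was sequenced as paired reads from 2 bone marrow and 2 pleural lavage samples, grouped by their titles. Libraries were made from amplified cDNA by a transposon method, and nothing states that they keep strand. Reads were trimmed with SOAPnuke, aligned to GRCm38 with HISAT2 2.1.0, mapped to genes with Bowtie2 2.2.5 and estimated with RSEM 1.2.8, per the submitters' notes and the study's methods. The deposited values are expected counts that the authors averaged over the libraries of each tissue, not scaled for depth. Their 3 comparison columns (a log2 fold change, a p-value and a q-value from DESeq2) were not used, and 0 columns per sample were left unused. The depth of each library is unknown, and no test was possible on 1 mean per tissue.

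Mean reads were scaled to the total of the listed genes, means under 3 reads were set to 3, and counts used a 2-fold threshold. Intervals (exact binomial, 95%) rest on the summed reads of 2 libraries, printed where a mean was under 30, and cover counting error only, since PCR reads are not independent molecules. Fractional reads were found with a tolerance of 0.001. Positions and principal transcript lengths come from GENCODE M21 (all 32 genes matched by Ensembl identifier), an earlier release on the authors' assembly, and promoter windows from RefSeq (GRCm38.p6), of which 33 of 35 read in the direction of a GENCODE transcript. All 32 genes were accounted for, and other cell cycle genes were named for the up to 3 largest ratios in each direction per list with at least 50 mean reads, markers by their most abundant genes. The genes and lists were chosen with earlier results of these data known. Alternatives were other scalings (TMM of edgeR 4.0.16 among them), floors, fold thresholds and filters. Scripts ran in R 4.3.3 and in Python 3.11.15 with scipy 1.17.1, pandas 2.3.3, matplotlib 3.10.9 and numpy 2.4.6.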

Additional observations from a re-analysis of the deposited data

How the results depend on the processing

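Under the 12 alternatives, between 15 and 21 genes were past the threshold on the lower side, except that 10 were lower when the genes that share exons with another gene were left out, which takes 15 of the 32 genes away. That filter and a scaling without eosinophil, precursor and neutrophil markers were chosen after seeing the data. The count of genes at least 2-fold higher moved from 4 to 9 without scaling, to 8 at a 1.5-fold and to 1 at a 4-fold threshold. The median log2 ratio of -1.78 was -1.34 without scaling, -1.59 with TMM, -2.11 with the scaling without markers, -2.23 with the median ratio of abundant genes, and -1.60 both without divided reads and without shared exons. Of the other cell cycle genes, 0 were at least 2-fold higher, against 3 at 1.5-fold, 3 without scaling and 1 with TMM. Cdk2ap2 alone turned direction, to -0.02 with the median ratio of abundant genes. The log2 ratio of the totals used for scaling was 0.44, and the alternatives ran from 0 to 0.88, which shifts every ratio by the same amount. No paired analysis was possible because the means carry no replicate numbers, and leaving out replicates could not be run for the same reason.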
